A study of Mus musculus with 6 samples.

Results

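The matrix metalloproteinases (Mmp genes), the membrane-bound ADAM proteases (Adam genes), the secreted ADAMTS proteases (Adamts genes) and the tissue inhibitors of metalloproteinases (Timp genes) were examined in RNA-seq of cultured mouse retinal ganglion cells (RGCs), the neurons whose axons form the optic nerve. Members were chosen by symbol alone, as every Ensembl gene whose mouse symbol is Mmp, Adam, Adamts or Timp followed by a number, with a trailing letter allowed for Mmp and Adam. This gave 79 genes of the 43346 in the tables, namely 23 Mmp, 33 Adam, 19 Adamts and 4 Timp genes.

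RGCs were purified by immunopanning for Thy1 (CD90), plated on poly-D-lysine and laminin at 250000 cells per well with forskolin, BDNF and CNTF, and received an AAV2 virus 4 h later at 100000 vector genomes per cell. The control virus encoded EGFP, the Sox11 virus encoded the transcription factor Sox11 with EGFP, and the Sox11 K91A virus encoded Sox11 whose lysine 91, a site of SUMO modification, is replaced by alanine. Total RNA was extracted 72 h after plating, and each group had 2 libraries. The RNA-seq protocol gives embryonic day 18 as the age, the general culture protocol gives postnatal day 2, and the promoter of the viruses and the number of animals pooled were not given in the sources used here. The study's animals were C57BL/6 mice of both sexes. Whether the libraries of a group came from separate cultures was also not stated, so the p-values measure only the spread between these libraries.

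Metalloproteinases carry a zinc ion in their catalytic site and are made as inactive precursors that are cleaved, often by furin or by another metalloproteinase, before they act. MMPs and ADAMTS proteases cut matrix proteins outside the cell, ADAMs cut adhesion molecules, receptors and growth factors off the cell surface, and TIMPs block the catalytic site of many of them. In neurons these enzymes are known for opening matrix ahead of growth cones, for shedding cell adhesion molecules, Notch and neurotrophin receptors, and for cutting chondroitin sulfate proteoglycans.

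The expected counts summed to between 27521981 and 37061718 per library. Sox11 was 234 and 332 CPM (counts scaled to library size) in the control libraries, 9178 and 14590 with Sox11 and 11970 and 7026 with Sox11 K91A. The RGC markers Rbpms and Pou4f1 were at 183 to 262 TPM (a level scaled to gene length as well) in every library, whereas Thy1, Nefl and Slc17a6 fell with Sox11 and Slc17a6 with Sox11 K91A. The 8 RGC markers summed to 8886 and 8069 TPM in the control libraries and 3914 to 6544 TPM in the others, and their part in the results was not tested. Replicate 2 of control and replicate 2 of Sox11 stood apart on the second principal component, at -45.2 and -39.1 against 17.3 to 23.8 in the other libraries, and held 95.9 and 254 CPM of Xist against 400.4 to 526. Microglial and macrophage markers summed to 2.92 to 8.41 TPM over 8 genes. Of these, Cx3cr1, P2ry12, Tmem119 and Csf1r were at 0 to 0.09 TPM and Cd68, Aif1 and C1qb at 0 to 3.79 TPM. The 6 astrocyte markers summed to 4.71 to 24.7 TPM, with Gfap at 0 in every library and Slc1a2 at 3.27 to 22.6 TPM. Among them S100b was called, falling with Sox11 (log2 fold change -3.70). The 6 endothelial markers summed to 1.49 to 5.05 TPM. Of the 4 tested, Pecam1 and Tek were called up with Sox11 K91A (2.03 and 3.14), beside 5.81% of all genes, and 0 with Sox11. S100b passed the filter on low counts through the control libraries alone, and Tek through libraries with a Sox11 virus alone. The filter favoured these 2 calls. The 5 Muller glia markers summed to 492.5 to 714.5 TPM, and only Glul was called, rising with both viruses (log2 fold changes 1.49 and 1.51). The 5 amacrine markers summed to 18.5 to 72.2 TPM, and only Slc6a9 was called, falling with both viruses. The part of such cells in the results was not tested.

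Control RGCs expressed a small set of these genes at high level. Of the 79 genes, 63 had a count in at least 1 library, 33 exceeded 1 TPM in both control libraries, and 12 exceeded 10 TPM. Timp2, an inhibitor that also helps to activate proMMP2, had the highest control mean at 209.6 ± 25.5 TPM (SD, n = 2), and it made up 96.8% to 98.0% of all Timp TPM in the 6 libraries. Next came Mmp24, a membrane-type MMP known from the nervous system, at 142 ± 9.84 TPM, and Adam15, an ADAM with roles in adhesion, at 127 ± 2.37 TPM.

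The ranges of Timp2, Mmp24 and Adam15 in the control libraries did not overlap. Adam11, a non-catalytic ADAM of neurons, was 168 and 70.8 TPM in the control libraries, a range that took in both Mmp24 and Adam15. Mmp12, the macrophage metalloelastase, followed with a mean of 59.7 ± 23.2 TPM, which its spread did not separate from Adam23 (56.3 ± 27.5), Mmp15 (46.4 ± 9.25), Adam22 (41.0 ± 16.96) and Adam19 (40.9 ± 13.3). Adam10 was 33.9 ± 1.85 TPM, Adamts10 29.6 ± 0.177 TPM and Adam9 24.9 ± 5.75 TPM. Low levels were the rule elsewhere, with Mmp2 at 4.09 ± 0.629 TPM, Mmp9 at 3.46 ± 0.269 TPM and Mmp14 at 1.93 ± 0.247 TPM.

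**Figure D1:**
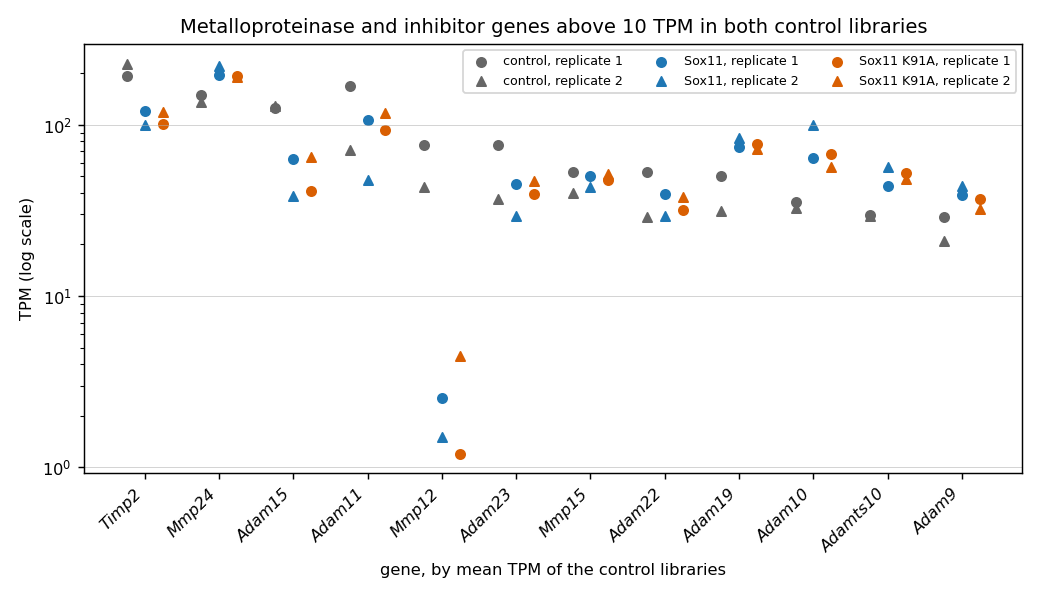
TPM, on a log scale, of the 12 genes above 10 TPM in both control libraries, ordered by control mean. Circles are replicate 1 and triangles replicate 2, in grey for control, blue for Sox11 and orange for Sox11 K91A. Mmp12 lay at 43.3 and 76.1 TPM in the control libraries and at 4.49 TPM or less in the 4 libraries with a Sox11 virus, while Mmp15 overlapped in all 3 groups.

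No count at all was found for 16 members, 14 others had at most 14 counts in any library, and the remaining 49 were tested. Of the tested members, 13 were Mmp, 16 Adam, 17 Adamts and 3 Timp genes. Mmp10, Adam7 and Adamts14 passed the filter on low counts through the control libraries alone, and Adam21 and Adam5 through libraries with a Sox11 virus alone. Of these, Mmp10 is among the calls counted with Sox11, and the filter favoured that call. A gene was called differentially expressed when limma-voom gave it an FDR under 0.05 with a fold change over 1.2 in either direction.

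With Sox11, 17 of the 49 tested members were called (34.7%, against 20.1% of all 15747 genes tested), 8 upregulated and 9 downregulated (9.96% and 10.2% of all genes). With Sox11 K91A, 13 were called (26.5%, against 10.6% of all genes), 6 upregulated and 7 downregulated (5.81% and 4.81% of all genes). In each comparison 31 of the 49 had an unadjusted p under 0.05, beside 38% and 30.6% of all genes. Both comparisons used the same control libraries, and 10 members were called in both, always in the same direction, which is 58.8% of the Sox11 calls and 76.9% of the Sox11 K91A calls. The median absolute log2 fold change of the tested members was 1.00 with Sox11 and 0.99 with Sox11 K91A, beside 0.47 and 0.39 over all genes. The median signed value was 0.16 and 0.09, beside 0.01 and 0.02 over all genes. Libraries of the groups did not overlap for 34 and 38 of the 49 members, 69.4% and 77.6%, beside 61.5% and 61.9% of all genes.

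These counts rested on single libraries. Without replicate 2 of Sox11, 0 members and 0 genes of any kind were called with Sox11, and without replicate 2 of control 8 members were called. The count was 10 without either replicate of Sox11 K91A, whose libraries share the estimate of spread. For Sox11 K91A the count was 0 members, and 0 genes of any kind, without replicate 2 of control, 1 without replicate 1 of Sox11 K91A and 3 without its replicate 2. When replicate 2 of control and replicate 2 of Sox11 were both left out, 10 members were called with Sox11 and 21 with Sox11 K91A. No called member changed direction in any alternative of either comparison with control.

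**Figure D2:**
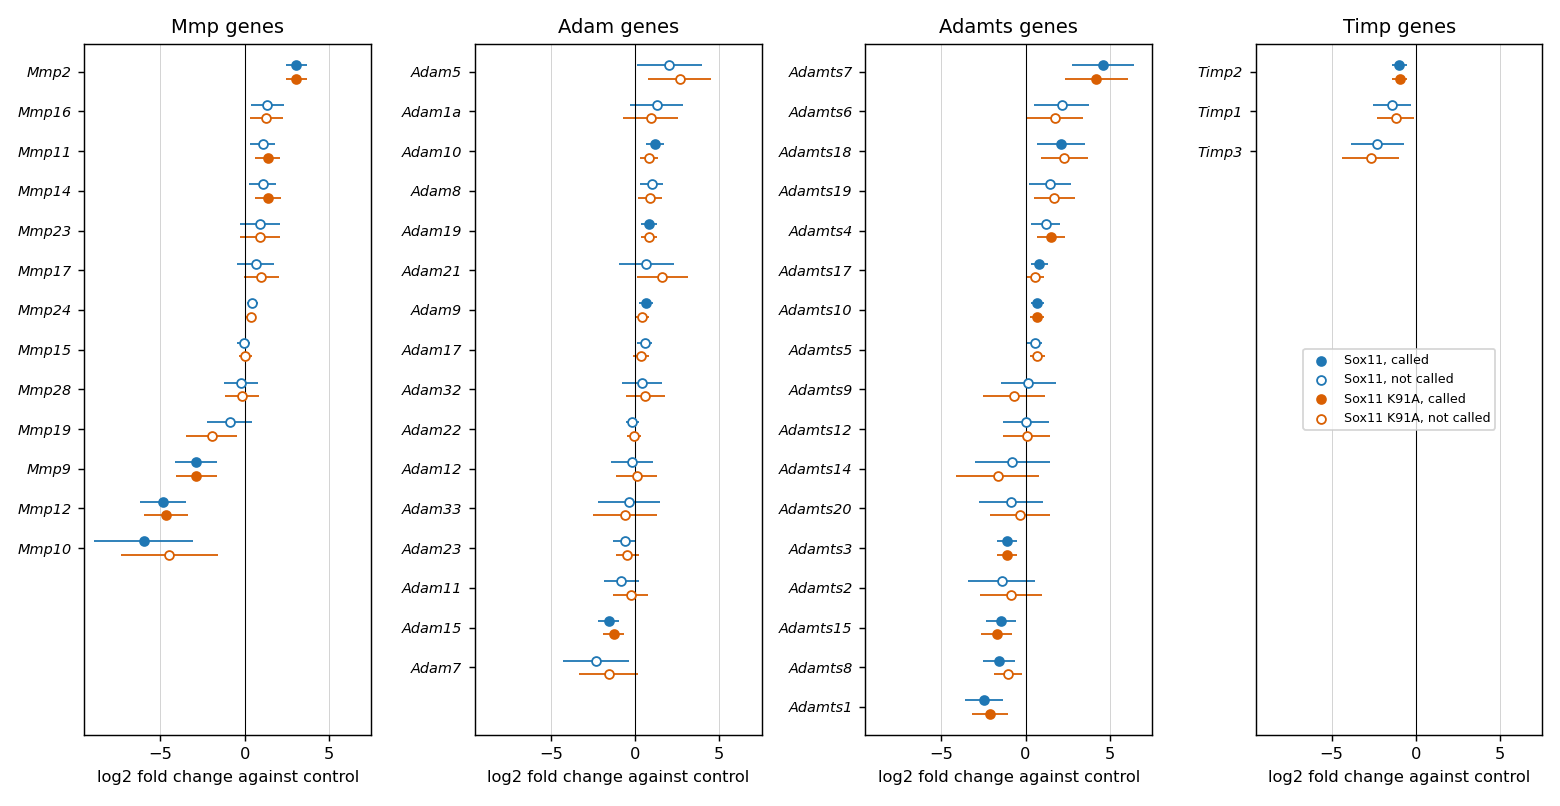
Log2 fold change against control of the 49 tested genes, in 1 panel per family, with lines for the 95% interval from limma-voom. Blue marks Sox11 and orange Sox11 K91A, filled where the gene was called and open where it was not. Mmp2 and Adamts7 lay farthest to the right among called genes, at 3.07 and 4.58 with Sox11. Mmp12 lay at -4.83 to the left, with only Mmp10, whose Sox11 libraries were both at 0, beyond it.

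The gelatinases, Mmp2 and Mmp9, which cut denatured collagen and basement membrane collagen, moved in opposite directions with both viruses. Mmp2 was 5.22 and 7.11 CPM in the control libraries, 48.8 and 55.8 CPM with Sox11, and 60.1 and 44.8 CPM with Sox11 K91A. Each library with a Sox11 virus was far above both control libraries. The log2 fold change of Mmp2 was 3.07 with Sox11 (SE 0.27, adjusted p = 0.00753, 8.40-fold higher) and 3.06 with Sox11 K91A (SE 0.27, adjusted p = 0.00919, 8.36-fold higher). Without replicate 2 of control and of Sox11 it was 3.22 and 3.31. The Sox11 call of Mmp2 was lost without replicate 2 of Sox11 alone (2.98). Its Sox11 K91A call was lost without replicate 2 of control alone (3.31). Each call was made in 19 of 20 alternatives. Mmp2 is on chromosome 8 (GRCm38, chr8:92827291-92853420, plus strand) and shares no exon base with another annotated gene. Fibroblasts are a known source of Mmp2, and the 8 pericyte and fibroblast markers summed to 6.40 and 5.06 TPM in the control libraries, 4.09 and 12.4 TPM with Sox11 and 5.00 and 3.89 TPM with Sox11 K91A, beside Mmp2 at 30.9 to 41.8 TPM with a Sox11 virus. Of these markers Pdgfra was called up with Sox11 (log2 fold change 2.79, adjusted p = 0.0493). It was 0.06 and 0.02 TPM in the control libraries and 0.12 to 0.29 TPM in the others. Pdgfra passed the filter on low counts through libraries with a Sox11 virus alone, so the filter favoured its call. The part of such cells in the values of Mmp2 was not tested.

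Mmp9 was 4.58 and 5.63 CPM in the control libraries, 1.06 and 0.453 CPM with Sox11, and 0.466 and 1.06 CPM with Sox11 K91A. The control libraries were above all the others. It fell by 2.90 on the log2 scale with Sox11 (SE 0.53, adjusted p = 0.0174) and by 2.86 with Sox11 K91A (SE 0.52, adjusted p = 0.026). The Sox11 call was lost without both odd libraries (-2.09, adjusted p = 0.0623) and without replicate 2 of Sox11 (-2.25, adjusted p = 0.12), and the Sox11 K91A call without replicate 1 of Sox11 K91A (-2.25, adjusted p = 0.274). For Sox11 K91A the value without both odd libraries was -2.69 (adjusted p = 0.015). On the TPM scale Mmp2 stood at 4.09 and Mmp9 at 3.46 in the control mean, and at 37.2 and 0.51 in the Sox11 mean. Microglia and macrophages are known sources of Mmp9. In the control libraries Mmp9 was 3.27 and 3.65 TPM, beside 2.21 and 3.36 TPM of Cd68, 2.01 and 2.47 TPM of Aif1 and 0.97 and 2.29 TPM of C1qb, with the other 5 markers of these cells at 0 to 0.29 TPM. None of the 3 markers tested was called with either virus, and the part of such cells in the values of Mmp9 was not tested.

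The membrane-type MMPs sit at the cell surface, and Mmp14, Mmp15, Mmp16 and Mmp24 span the membrane. Mmp14, the main activator of proMMP2, was 2.11 and 2.78 CPM in the control libraries, 5.28 and 5.01 CPM with Sox11, and 7.63 and 5.28 CPM with Sox11 K91A. All 4 libraries with a Sox11 virus were above control. Mmp14 rose with Sox11 K91A (log2 fold change 1.37, SE 0.32, adjusted p = 0.0432) and was not called with Sox11 (1.06, SE 0.33, adjusted p = 0.0637). Its call with Sox11 K91A was made in 8 of 20 alternatives.

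Of the 5 membrane-type MMPs tested, Mmp14 was the only one called in either comparison, beside 20.1% and 10.6% of all genes. Mmp16 was 22.6 and 8.22 CPM in the control libraries and 26.7 to 36.9 CPM with a Sox11 virus, with adjusted p-values of 0.0627 and 0.0927. Mmp24 was 308 and 304 CPM in the control libraries and 398 to 444 CPM in the others, with log2 fold changes of 0.46 (adjusted p = 0.0527) and 0.38 (adjusted p = 0.111). Mmp24 shares 13.6% of its exon bases with BC029722 on the other strand, and whether counting used strand was not given in the sources used here. Mmp15 and Mmp17 had log2 fold changes of -0.07 and 0.64 with Sox11 and 0.05 and 0.99 with Sox11 K91A. The sixth gene of this kind was not tested.

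Mmp12, known for degrading elastin, had the largest fall among members with a control mean above 10 CPM. Mmp12 was 52.9 and 35.5 CPM in the control libraries, 1.97 and 1.18 CPM with Sox11, and 0.931 and 3.16 CPM with Sox11 K91A. The lowest control value was over the highest value with a Sox11 virus by more than 10 times. It fell by 4.83 on the log2 scale with Sox11 (SE 0.58, adjusted p = 0.0112) and by 4.67 with Sox11 K91A (SE 0.55, adjusted p = 0.014). Without replicate 2 of control and of Sox11 the values were -4.73 and -4.96. The Sox11 call was lost without replicate 2 of Sox11 alone (-4.44). The Sox11 K91A call was lost without replicate 2 of control alone (-4.97) and without replicate 1 of Sox11 K91A (-3.76). The Sox11 K91A value was -5.51 without replicate 2 of Sox11 K91A. The calls of Mmp12 were made in 19 and 18 of 20 alternatives. The control level of Mmp12, 43.3 and 76.1 TPM, stood beside summed microglial and macrophage markers of 5.46 and 8.41 TPM, and beside 2.92 to 7.58 TPM in the libraries with a Sox11 virus, and the part of these cells was not tested. Such bulk libraries cannot tell fewer expressing cells from less RNA per cell.

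The stromelysins, which cleave many matrix proteins and other proMMPs, were low. Mmp10 (stromelysin-2) had 47 and 27 counts in the control libraries, 0 and 0 with Sox11, and 0 and 4 with Sox11 K91A. Because it passed the count filter through the control libraries alone, where it is high, its call with Sox11 (adjusted p = 0.0229) was favoured by the filter and is given as a description. It was at least 11.9-fold lower with Sox11 when those libraries are set to a floor of 3 counts per library, and was not called with Sox11 K91A (adjusted p = 0.0616). Mmp3 (stromelysin-1) had 0 counts in every library. Mmp11 (stromelysin-3, activated inside the cell by furin) was 8.23 and 6.95 CPM in the control libraries, 21.4 and 11.9 CPM with Sox11, and 19.4 and 19.7 CPM with Sox11 K91A. It rose with Sox11 K91A (log2 fold change 1.38, SE 0.31, adjusted p = 0.0404) and was not called with Sox11 (1.06, SE 0.32, adjusted p = 0.058). The 4 collagenases had at most 6 counts in any library and were not tested.

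Mmp12 and Mmp10 lie in a cluster of 10 Mmp genes on chromosome 9 (GRCm38, chr9:7272514-7699585), in which neighbouring members are under 100000 bases apart. These were the only members of the cluster with enough counts to be tested, and since Mmp10 passed the filter through the control libraries alone, no shared direction was read from the pair. MMP promoters of this kind are known for AP-1 sites, to which Fos and Jun bind, so the letters TGAGTCA were searched on both strands (TGACTCA on the other) in the 250 bases before each RefSeq start on GRCm38.p6, along with the Sox-type letters AACAAT and ACAAAG. Matches of different motifs may share bases at their ends. Of the 79 members, 49 had a promoter in the RefSeq table. The AP-1 letters were found in 7 of the 10 promoters of the cluster (70.0%), in 9 of the 49 member promoters (18.4%) and in 5.16% of 27025 promoters of all genes. ACAAAG was found in 6 of the cluster's 10, in 12 of the 49 (24.5%) and in 18.6% of all promoters, and AACAAT in 4 of the 49 (8.16%) and in 10.9% of all. Of the 20 members called with either virus, 12 had a promoter in the table, and among these 3 held TGAGTCA, 3 held ACAAAG and 0 held AACAAT. A match in these letters is a description of the sequence, and no binding was measured.

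The promoters of the 3 called members that held the AP-1 letters are shown for comparison, each 5′ to 3′ on the strand of its gene and ending at the base before a RefSeq start, with the AP-1 letters in capitals. They are those of Mmp12 (chr9:7347124-7347373, its motif beginning 44 bases before the start), Mmp10 (chr9:7502092-7502341, 63 bases before the start), both lower with Sox11, and Adam19 (chr11:46055734-46055983, 131 bases before the start), which rose with Sox11. Mmp12 and Adam19 have other RefSeq starts in the table, whose promoters lack these letters.
Mmp12: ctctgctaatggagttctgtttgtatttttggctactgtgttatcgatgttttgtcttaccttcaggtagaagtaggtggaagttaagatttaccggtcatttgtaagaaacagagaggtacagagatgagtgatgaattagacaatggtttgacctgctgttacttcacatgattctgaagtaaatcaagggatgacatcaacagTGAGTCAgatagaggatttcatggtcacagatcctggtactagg
Mmp10: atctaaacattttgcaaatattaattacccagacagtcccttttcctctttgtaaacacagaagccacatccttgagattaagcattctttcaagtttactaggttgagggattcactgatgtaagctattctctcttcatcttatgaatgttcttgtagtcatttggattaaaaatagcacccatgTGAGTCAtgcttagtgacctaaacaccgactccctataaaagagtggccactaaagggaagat
Adam19: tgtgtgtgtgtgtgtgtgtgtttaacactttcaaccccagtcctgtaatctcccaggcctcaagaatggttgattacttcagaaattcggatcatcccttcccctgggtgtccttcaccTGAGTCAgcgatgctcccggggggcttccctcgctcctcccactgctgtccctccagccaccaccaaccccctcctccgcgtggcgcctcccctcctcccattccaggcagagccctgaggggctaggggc

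Windows of 41 bases around the AP-1 letters are shown for neighbours of Mmp12 and Mmp10 in the same cluster, whose genes had 6 counts at most in any library. They come from Mmp3 (chr9:7445759-7445799), Mmp13 (chr9:7272462-7272502, with the letters of the other strand) and Mmp1a (chr9:7464051-7464091).
Mmp3: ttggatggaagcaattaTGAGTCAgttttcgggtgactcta
Mmp13: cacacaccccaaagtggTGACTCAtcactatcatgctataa
Mmp1a: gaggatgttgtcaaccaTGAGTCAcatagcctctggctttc

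Of the 9 ADAM sheddases of somatic tissues, 8 were tested. With Sox11 3 of these rose and 1 fell, beside 9.96% and 10.2% of all genes tested. With Sox11 K91A 0 rose and 1 fell, beside 5.81% and 4.81% of all genes. Levels of the sheddases ran from 4 to 11 counts per library for Adam33 up to Adam15, the highest in control TPM. Adam28 had 0 counts in all libraries but 1. Adam10, the main sheddase of Notch, N-cadherin and the amyloid precursor protein, was 74.4 and 77.4 CPM in the control libraries, 137 and 214 CPM with Sox11, and 148 and 124 CPM with Sox11 K91A. The control libraries were below all others. Adam10 rose by 1.17 on the log2 scale with Sox11 (SE 0.22, adjusted p = 0.0186) and was not called with Sox11 K91A (0.84, SE 0.22, adjusted p = 0.0556). The Sox11 value of Adam10 was 0.89 with both odd libraries left out and 0.86 without replicate 2 of Sox11 alone. Its call was made in 18 of 20 alternatives.

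Adam19, which sheds neuregulin, was 156 and 106 CPM in the control libraries, 222 and 235 CPM with Sox11, and 234 and 215 CPM with Sox11 K91A. It rose with Sox11 (log2 fold change 0.82, adjusted p = 0.0328), and with Sox11 K91A its value of 0.80 lay at an adjusted p of 0.05 and was not called. Its Sox11 value was 0.55 without replicate 2 of control and 0.79 (call lost) without replicate 2 of Sox11. The Sox11 call was also lost with sample quality weights (adjusted p = 0.0581) and was made in 13 of 20 alternatives. Antisense genes overlap 10.1% of the exon bases of Adam19. Adam9, which sheds growth factor precursors, was 55.0 and 42.9 CPM in the control libraries, 72.2 and 80.1 CPM with Sox11 and 70.1 and 61.1 CPM with Sox11 K91A. It rose with Sox11 (0.65, adjusted p = 0.0396) and was not called with Sox11 K91A (0.44, adjusted p = 0.139). The Sox11 call of Adam9 was made in 8 of 20 alternatives.

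Adam15 was the only Adam gene called with Sox11 K91A (6.25% of the 16 tested, against 10.6% of all genes). It fell with both viruses. It was 109 and 107 CPM in the control libraries, 46.6 and 29.0 CPM with Sox11, and 36.5 and 54.5 CPM with Sox11 K91A. The groups were clearly apart, and the falls were 1.56 on the log2 scale (SE 0.27, adjusted p = 0.0161) and 1.28 (SE 0.26, adjusted p = 0.0326). Without both odd libraries the values were -1.22 and -1.29. The Sox11 value was -1.20 (call lost) without replicate 2 of Sox11, and the Sox11 K91A value was -0.98 (call lost) without replicate 1 of Sox11 K91A. Both calls were lost with sample quality weights (adjusted p = 0.0522 and 0.0511), and they were made in 18 and 13 of 20 alternatives. Adam15 shares 20.6% of its exon bases with the antisense gene 4731419I09Rik, so reads there could not be assigned without knowing the strand.

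Adam17, the sheddase of tumour necrosis factor, was 9.73 and 9.06 CPM in the control libraries and 11.3 to 14.7 CPM in the others, without overlap, and had log2 fold changes of 0.56 (adjusted p = 0.0785) and 0.34 (adjusted p = 0.289). Adam8, known from leukocytes and injured tissue, was 2.97 and 3.32 CPM in the control libraries and 5.01 to 6.86 CPM with a Sox11 virus, with adjusted p-values of 0.0559 and 0.0942. Adam12 ranged from 2.98 to 7.26 CPM over all libraries and overlapped between the groups.

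The non-catalytic ADAMs of neurons, Adam11, Adam22 and Adam23, bind LGI proteins at synapses and axons, and none of the 3 was called. Adam22 was 136 and 107 CPM in the control libraries and 99.8 to 121 CPM in the others, with log2 fold changes of -0.16 (95% interval -0.56 to 0.24) and -0.05 (-0.45 to 0.34). Adam11 was 322 and 170 CPM in the control libraries, 204 and 87.7 CPM with Sox11, and 175 and 218 CPM with Sox11 K91A, so that the groups overlapped. Adam23 was 178 and 105 CPM in the control libraries and 76.0 to 110 CPM in the others, with log2 fold changes of -0.62 (adjusted p = 0.149) and -0.46 (adjusted p = 0.314).

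The 21 remaining Adam genes are known mostly from testis and other reproductive tissue. Of these, 11 had 0 counts in every library and 5 were tested. In every comparison 0 of the 5 were called, beside 20.1% of all genes with Sox11 and 10.6% with Sox11 K91A. Over all families, 16 tested members were named in no list and not called, with log2 fold changes from -2.32 to 2.15 with Sox11 and from -1.97 to 2.65 with Sox11 K91A.

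Among the ADAMTS proteases, 8 of the 17 tested were called with Sox11 (47.1%, against 20.1% of all genes tested), 4 in each direction. With Sox11 K91A 6 were called (35.3%, against 10.6% of all genes), 3 in each direction. Adamts7, which cleaves cartilage oligomeric matrix protein, had the largest rise of any member called. Adamts7 was 0.895 and 1.09 CPM in the control libraries, 17.03 and 33.6 CPM with Sox11, and 25.1 and 13.4 CPM with Sox11 K91A. The lowest library with a Sox11 virus was more than 10 times the higher control. Its log2 fold change was 4.58 with Sox11 (SE 0.78, adjusted p = 0.0159, 24.0-fold higher) and 4.19 with Sox11 K91A (SE 0.79, adjusted p = 0.0273, 18.3-fold higher). Without both odd libraries these were 4.23 (no longer called) and 4.35. Both calls were lost without replicate 1 of control (4.47 and 4.08) and without replicate 2 of control (4.74 and 4.35). They were also lost with sample quality weights (adjusted p = 0.0728 and 0.0823). The calls of Adamts7 were made in 15 and 16 of 20 alternatives. In TPM Adamts7 went from 0.615 in the control mean to 15.4 with Sox11 and 9.62 with Sox11 K91A. It lies on chromosome 9 (GRCm38, chr9:90163069-90208071, plus strand) and shares 1.90% of its exon bases with Tbc1d2b.

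The ADAMTS proteases that cut aggrecan, versican and brevican did not move as a block. Of the 7 tested, 0 rose and 3 fell with Sox11, beside 9.96% and 10.2% of all genes. With Sox11 K91A 1 rose and 2 fell, beside 5.81% and 4.81% of all genes. Adamts1 was 40.6 and 23.8 CPM in the control libraries, 8.99 and 3.62 CPM with Sox11, and 5.52 and 9.43 CPM with Sox11 K91A. All 4 libraries with a Sox11 virus were below control, and the falls were 2.46 (SE 0.48, adjusted p = 0.0206) and 2.09 (SE 0.46, adjusted p = 0.0359) on the log2 scale. The Sox11 value was -1.76 (adjusted p = 0.137, call lost) without replicate 2 of Sox11 and -3.09 (adjusted p = 0.0222) without its replicate 1. Adamts15 was 7.80 and 6.69 CPM in the control libraries and 1.49 to 3.33 CPM in the others, and fell by 1.48 (adjusted p = 0.0372) and 1.70 (adjusted p = 0.0407) on the log2 scale. Without replicate 1 of Sox11 K91A the latter was -1.10 (call lost). The calls of Adamts15 were made in 10 and 9 of 20 alternatives.

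Adamts8, the neighbour of Adamts15 on chromosome 9, was 2.79 and 3.50 CPM in the control libraries, 0.801 and 1.33 CPM with Sox11 and 1.49 and 1.58 CPM with Sox11 K91A. It fell with Sox11 (log2 fold change -1.58, adjusted p = 0.0365) and was not called with Sox11 K91A (-1.04, adjusted p = 0.108). That fall was called in 9 of 20 alternatives. Adamts4, an aggrecanase, moved the other way, from 19.6 and 8.56 CPM in the control libraries to 33.4 and 24.5 CPM with Sox11, and 35.5 and 34.1 CPM with Sox11 K91A. It rose with Sox11 K91A (1.49, SE 0.35, adjusted p = 0.0431) and was not called with Sox11 (1.196, SE 0.36, adjusted p = 0.0559). Without replicate 2 of control its Sox11 K91A value was 0.83 (adjusted p = 0.0996). Adamts5, the other main aggrecanase and the neighbour of Adamts1 on chromosome 16, was 30.9 and 22.1 CPM in the control libraries and 35.5 to 44.0 CPM in the others, with log2 fold changes of 0.54 (adjusted p = 0.0892) and 0.70 (adjusted p = 0.0622).

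Of the procollagen N-proteinases, which trim fibrillar collagen, Adamts3 was called. It was 8.02 and 8.10 CPM in the control libraries, 3.53 and 3.92 CPM with Sox11, and 4.13 and 3.33 CPM with Sox11 K91A. Both control libraries were above all the others, and Adamts3 fell by 1.11 on the log2 scale with both viruses (adjusted p = 0.0271 and 0.0378). The Sox11 call was lost without both odd libraries (-1.17, adjusted p = 0.0627), without replicate 2 of control (adjusted p = 0.0574) and with sample quality weights (adjusted p = 0.0712), and it was made in 10 of 20 alternatives.

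The ADAMTS proteases linked to fibrillin and those without a settled substrate rose where they were called. These were 3 of 5 tested with Sox11 and 1 with Sox11 K91A, beside 9.96% and 5.81% of all genes that rose. Adamts10, which binds fibrillin microfibrils, made up 37.7% to 50.4% of all Adamts TPM in the 6 libraries. It was 50.6 and 55.0 CPM in the control libraries, 75.1 and 98.7 CPM with Sox11 and 88.4 and 81.3 CPM with Sox11 K91A. Adamts10 rose with both viruses (log2 fold changes 0.71, adjusted p = 0.0324, and 0.68, adjusted p = 0.0492). These calls were made in 13 and 8 of 20 alternatives. Adamts17, which is also linked to fibrillin microfibrils, was 8.23 and 6.90 CPM in the control libraries and 10.8 to 14.3 CPM in the others. It rose with Sox11 (0.82, adjusted p = 0.0397) but was not called with Sox11 K91A (0.58, adjusted p = 0.128). That rise was called in 8 of 20 alternatives.

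Adamts18, a protease without a settled substrate, was 3.08 and 0.701 CPM in the control libraries, 6.66 and 5.34 CPM with Sox11, and 8.04 and 5.62 CPM with Sox11 K91A. As a ratio, though not in CPM, its control replicates differed more from each other than the libraries with a Sox11 virus did. Adamts18 rose with Sox11 (2.12, SE 0.60, adjusted p = 0.049) and was not called with Sox11 K91A (2.31, SE 0.59, adjusted p = 0.0528). That rise was called in 7 of 20 alternatives. Without replicate 2 of control, the library with the low value, the Sox11 value of Adamts18 was 0.94 (adjusted p = 0.168), and without replicate 1 of control it was 3.06 (adjusted p = 0.0272).

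All 3 Timp genes tested were lower in every library with a Sox11 virus than in both control libraries. Groups did not overlap, in either direction, for 61.5% of all genes with Sox11 and 61.9% with Sox11 K91A. Of the 3, only Timp2 was called (33.3%, beside 20.1% and 10.6% of all genes). Timp2 was 336 and 432 CPM in the control libraries, 209 and 173 CPM with Sox11, and 180 and 215 CPM with Sox11 K91A. Both control libraries were above all the others, and Timp2 fell by 1.00 (SE 0.19, adjusted p = 0.0188) and 0.96 (SE 0.19, adjusted p = 0.0298) on the log2 scale. Without both odd libraries the values were -0.68 and -0.77. The Sox11 value was -0.86 (call lost) without replicate 2 of Sox11, and the Sox11 K91A value was -0.82 (call lost) without replicate 1 of Sox11 K91A. The Sox11 K91A call was also lost without replicate 2 of control alone (-0.77) and without replicate 2 of Sox11 K91A (-1.09). Timp2 was called in 19 and 17 of 20 alternatives. The TPM of the 4 Timp genes together was 197 and 235 in the control libraries and 102 to 124 in the others. Timp2 is on chromosome 11 (GRCm38, chr11:118301069-118355740, minus strand).

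Timp3, which is held in the matrix and also inhibits ADAM17 and aggrecanases, was 1.40 and 2.98 CPM in the control libraries and 0.206 to 0.513 CPM in the others, without overlap. Its log2 fold changes of -2.31 (SE 0.67, adjusted p = 0.0511) and -2.69 (SE 0.71, adjusted p = 0.0555) missed the threshold, and it shares 21.3% of its exon bases with Syn3. Timp1 was 1.68 and 2.26 CPM in the control libraries and 0.543 to 1.03 CPM in the others, with log2 fold changes of -1.44 (adjusted p = 0.0721) and -1.20 (adjusted p = 0.132). Timp1 lies inside the span of Syn1 on the other strand. Timp4 had at most 1 count in any library.

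**Figure D3:**
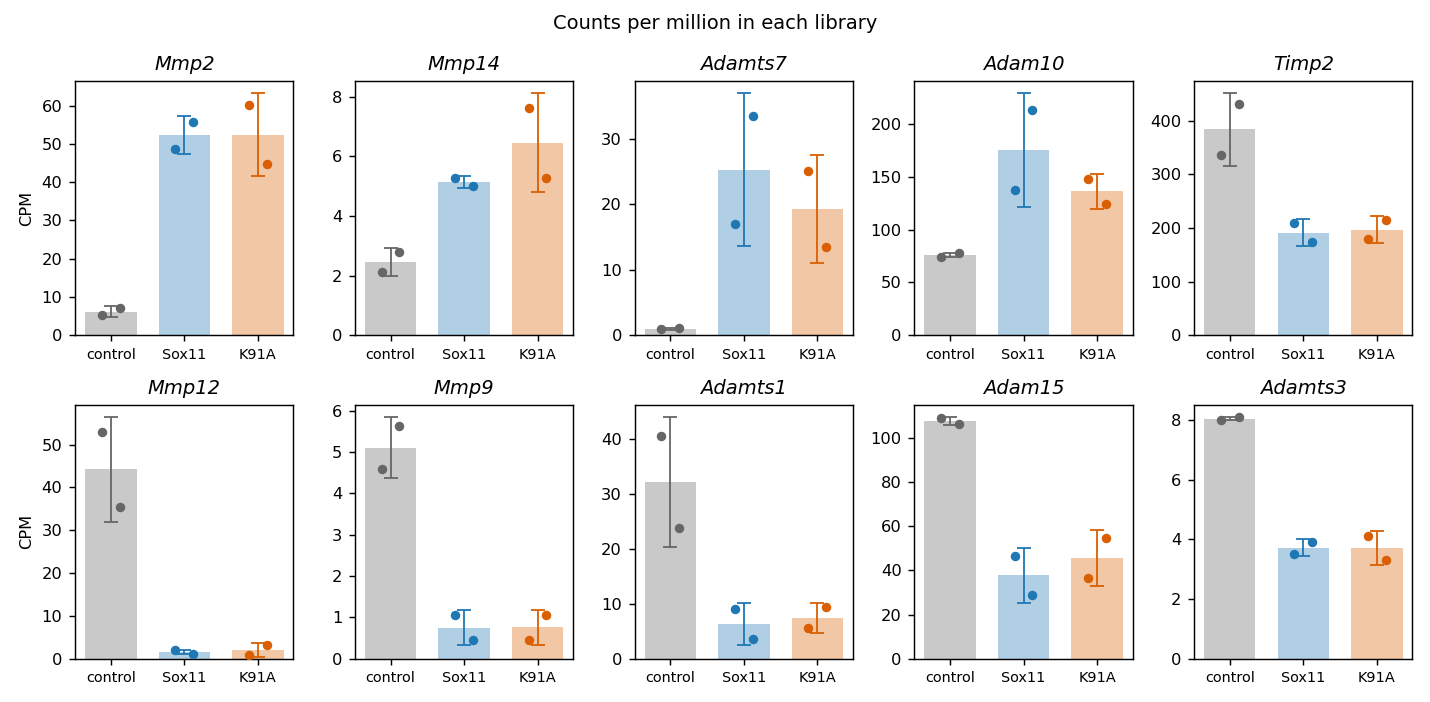
CPM in each library for 10 genes, with a vertical axis from 0 in each panel. Points are the libraries, bars the mean and whiskers the SD over 2 libraries, in grey for control, blue for Sox11 and orange for Sox11 K91A. In the control libraries Mmp2 lay at 5.22 and 7.11 CPM and Mmp12 at 52.9 and 35.5 CPM, and in no panel did a library with a Sox11 virus fall within the control range.

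Partners, modulators and substrates of these enzymes were read from lists, whose counts stand beside 9.96% of all genes tested that rose and 10.2% that fell with Sox11, 20.1% together, and 5.81% and 4.81% with Sox11 K91A. Of 12 tested genes for tetraspanin and rhomboid partners of ADAM10 and ADAM17 and for proprotein convertases, 2 rose and 1 fell with Sox11, and 2 rose with Sox11 K91A. Tspan5 and Tspan14, tetraspanins that carry ADAM10 to the cell surface, had log2 fold changes of 1.43 and 1.21 with Sox11 (adjusted p = 0.0161 and 0.0125) and 1.13 and 1.10 with Sox11 K91A (adjusted p = 0.0359 and 0.0199). Tspan17, another of these tetraspanins, fell with Sox11 by 1.05 (adjusted p = 0.0303). Furin was 63.3 to 89.0 CPM in all libraries and was not called.

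Of 9 tested genes for other modulators and ADAMTS-like proteins, 1 rose and 2 fell with Sox11, and 1 fell with Sox11 K91A. Reck, a membrane-anchored inhibitor of several MMPs, rose with Sox11 (log2 fold change 0.86, adjusted p = 0.0402). Bsg, which encodes the MMP inducer basigin, fell with both viruses (-1.03, adjusted p = 0.0197, and -0.85, adjusted p = 0.0434), and the matrix proteoglycan gene Spock2 fell with Sox11 (-1.35, adjusted p = 0.0283). Among the LGI ligands of the non-catalytic ADAMs, Lgi1 rose with both viruses (0.62, adjusted p = 0.0298, and 0.68, adjusted p = 0.0332) and Lgi3 fell with Sox11 (-2.79, adjusted p = 0.0324), of 3 tested.

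Of the 6 tested genes for lecticans, the chondroitin sulfate proteoglycans that ADAMTS proteases cut, and their link proteins, 2 rose with both viruses. Vcan (versican) was 1.54 and 2.31 CPM in the control libraries, 130 and 295 CPM with Sox11, and 217 and 110 CPM with Sox11 K91A, with log2 fold changes of 6.65 (adjusted p = 0.0115) and 6.31 (adjusted p = 0.0164). Ncan (neurocan) rose by 1.91 (adjusted p = 0.011) and 1.81 (adjusted p = 0.0132). Bcan (brevican) fell with Sox11 by 1.62 (adjusted p = 0.0368), and Acan (aggrecan) was 45.3 and 12.5 CPM in the control libraries and 0.422 to 3.74 CPM in the others, with adjusted p-values of 0.0598 and 0.0807.

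Of 16 membrane proteins known as substrates of ADAMs, 3 rose and 3 fell with each virus, beside 9.96% and 10.2% of all genes with Sox11 and 5.81% and 4.81% with Sox11 K91A. Cdh2 (N-cadherin), Ngfr (the p75 neurotrophin receptor) and Prnp (prion protein) had log2 fold changes of 1.44, 3.32 and 1.19 with Sox11 and 1.23, 3.10 and 1.08 with Sox11 K91A. The growth factor gene Hbegf, the chemokine gene Cx3cl1 and the ephrin gene Efna5 had values of -1.05, -2.06 and -0.84 with Sox11 and -0.86, -1.68 and -0.87 with Sox11 K91A. App, L1cam and Aplp2 were not called.

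Set against Sox11 directly, Sox11 K91A gave calls for 0 of the 49 members (0% of all genes tested) by limma-voom. By edgeR and by DESeq2 it was also 0 members, and 0 members had an unadjusted p under 0.05 in limma-voom, against 108 of all genes (0.686%). The log2 differences lay between -1.07 and 1.52, with 39 of the 49 within 0.5 of 0, and libraries of the 2 groups did not overlap for 10 members (20.4%, against 26.6% of all genes). The smallest unadjusted p was 0.15.

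The absence of a call does not show that the viruses act alike, and the intervals give what these libraries allow. For 19 of the 49 members, the 95% interval excluded a 2-fold difference in either direction, and this held for 11 of the 20 members called against control. The interval of Mmp2 was -0.46 to 0.44 on the log2 scale around -0.01, and that of Timp2 was -0.40 to 0.49 around 0.05. For Adam10, called with Sox11 alone, the difference was -0.34 (-0.86 to 0.19), and for Adam15 it was 0.29 (-0.36 to 0.93). The data left wide intervals for Adamts7 (-1.31 to 0.53) and Mmp12 (-1.61 to 1.94). A gene called against control with 1 virus alone was therefore not shown to differ between the viruses.

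**Figure D4:**
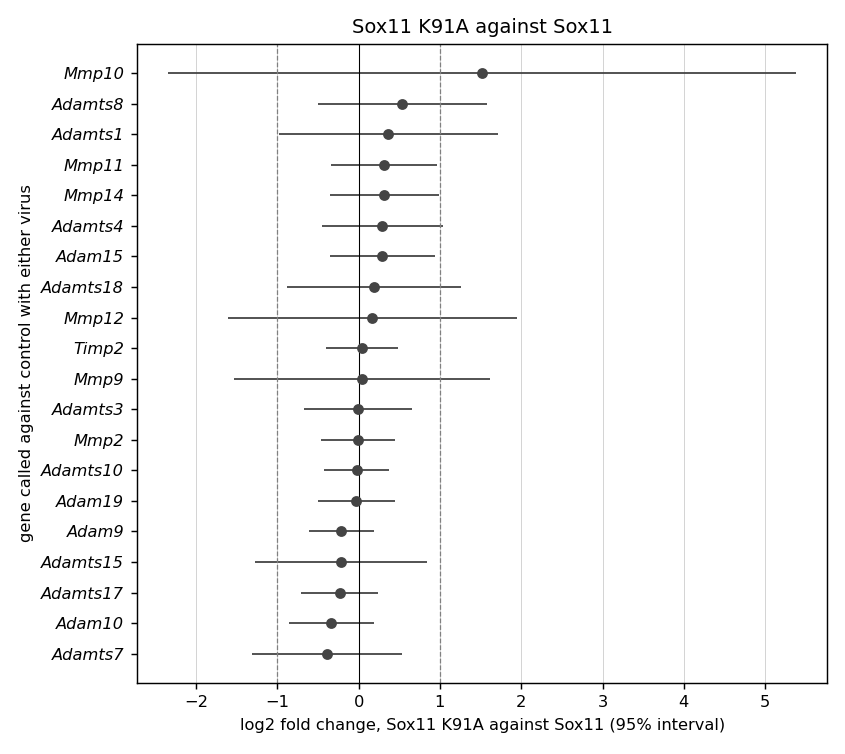
Log2 fold change of Sox11 K91A against Sox11 for the 20 genes called against control with either virus. Points are limma-voom estimates, lines the 95% intervals and dashed lines a 2-fold difference. Every interval crosses 0, and that of Mmp10, from -2.34 to 5.38, is the widest.

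The libraries with a Sox11 virus differed in Sox11 itself, from 7026 CPM in replicate 2 of Sox11 K91A to 14590 CPM in replicate 2 of Sox11. Adamts7, Adam10 and Adam19 had the same order over these 4 libraries as Sox11, and Adam15, Adamts1, Mmp9 and Timp2 had the reverse order. These were 7 of the 20 members called against control (35.0%), beside 26.3% of all genes tested that showed either order, and the part of the Sox11 level in these values was not tested.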

How the data were processed

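The 6 RNA-seq libraries of cultured mouse RGCs, 2 per group, were read from 1 deposited table per library, and groups were taken from the sample titles. The authors used STAR for alignment to mm10 and RSEM for counting per gene. They deposited expected counts, which are estimates and need not be whole, and TPM, which RSEM scales to gene length and to the same total in each library. The deposited tables also hold gene lengths, which were not tested, and the posterior SD of each count. Tool versions, the annotation and the strand setting are not given in the sources used here. Symbols came from GENCODE M21 on GRCm38 and matched 42462 of 43346 Ensembl genes (98.0%). The 26248 numbered entries and 96 spike-in entries held 1 count in all and were left out.

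Expected counts were rounded, low-count genes were dropped by filterByExpr of edgeR 4.0.16, and libraries were scaled by TMM (factors 0.985 to 1.04). The 15747 genes left were tested with limma-voom (limma 3.58.1, R 4.3.3) in a single fit of all 6 libraries with 3 groups, after the study's methods, which name limma-voom, an FDR under 0.05 and a fold change over 1.2. Adjusted p-values are two-sided, come from limma-voom and were adjusted by Benjamini-Hochberg over all genes tested. CPM uses the TMM-scaled library sizes and covers counting at the depths given. A fold against libraries at 0 used a floor of 3 counts per library, which covers counting error only. Replicate libraries differed beyond sampling noise and were all kept.

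Members were taken by symbol alone, whereas role groups and gene lists were chosen with earlier results of these data known. Named members are those called in any comparison, the 10 with the highest control TPM, and 24 listed for their known roles. Members of the other lists are named where called, and Furin, Acan, App, L1cam and Aplp2 were named after their values were seen. Promoters came from RefSeq. Alternatives were edgeR's quasi-likelihood test, DESeq2 1.42.0, sample quality weights, limma-trend on log2(TPM + 1) and log2(TPM + 0.1), other scalings, filters and fold thresholds, unrounded counts, a fit of 2 groups, blocks for the replicate number and for the 2 odd libraries, and leaving out each library. Leaving out both odd libraries, and a block with crossed replicate numbers, were chosen after seeing the data. Python 3.11.15, pandas 2.3.3 and matplotlib 3.10.9 were used for tables and plots.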

Additional observations from a re-analysis of the deposited data

How the results depend on the processing

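The number of members called with Sox11 was 17 and stayed within 1.5 times of that in most alternatives, but was 6 with sample quality weights, 10 with a fit of only the 2 groups compared and 28 with a block for replicate 2 of control and replicate 2 of Sox11. It ranged from 0 to 19 when libraries were left out. With Sox11 K91A the number was 13, and it was 24 with DESeq2 and 5 with limma-trend on log2(TPM + 1) or log2(TPM + 0.1), and ranged from 0 to 21 when libraries were left out. Counts over all genes were 3171 and 1672, with 979 under quality weights for Sox11 and 3144 under DESeq2 for Sox11 K91A. Between Sox11 K91A and Sox11 the number of members was 0 in every alternative run. The cause of these shifts was not tested. Genes with few counts, such as Mmp10, Timp1 and Timp3, carry the widest errors at this depth.

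Whether the replicate numbers pair the libraries was not stated. Deviations of same-numbered libraries correlated across genes at 0.259 for control and Sox11. The values were -0.045 for control and Sox11 K91A and -0.282 for Sox11 and Sox11 K91A, so no pairing common to the 3 groups was seen. With the replicate number as a block, 15 and 10 members were called against control and 0 between the viruses, and with crossed numbers the last count was also 0.

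Direction changed only for named members that were not called in the comparison concerned. The values that follow are log2 fold changes, and ranges are those with libraries left out. With Sox11, Mmp15 was 0.027 with limma-trend at both pseudocounts and ranged from -0.209 to 0.073, Adam12 from -0.917 to 0.369, Adam22 from -0.329 to 0.014 and Mmp17 from -0.097 to 1.228. With Sox11 K91A, Adam12 was -0.022 with edgeR, -0.038 with DESeq2, -0.012 with the replicate block and -0.488 with the block for the 2 odd libraries, and ranged from -0.617 to 0.666. Mmp15 was -0.076 with the latter block and ranged from -0.087 to 0.193, Adam11 from -0.72 to 0.206 and Adam22 from -0.221 to 0.12. Between Sox11 K91A and Sox11, the block for the 2 odd libraries gave 0.077 for Adamts7, -0.164 for Mmp12 and 0.124 for Mmp2, and Mmp2 was 0.005 with both edgeR and DESeq2. The ranges there were -0.851 to 0.124 for Adamts7, -0.672 to 1.07 for Mmp12, -0.221 to 0.205 for Mmp2, -0.068 to 0.633 for Adam15 and -0.091 to 0.195 for Timp2.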

Other observations

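The plasminogen system, whose protease plasmin can activate proMMPs, was read as a further list with no member in the families above. Of its 6 tested genes, 2 rose and 1 fell with Sox11, and 2 rose with Sox11 K91A, beside 20.1% and 10.6% of all genes called. The genes that rose encode protease inhibitors. Serpini1 (neuroserpin) was 123 and 118 CPM in the control libraries, 493 and 682 CPM with Sox11, and 523 and 401 CPM with Sox11 K91A, with log2 fold changes of 2.27 (adjusted p = 0.00753) and 1.93 (adjusted p = 0.0118). Serpine2 (protease nexin-1) was 15.5 and 21.5 CPM in the control libraries, 67.0 and 76.8 CPM with Sox11, and 103 and 57.5 CPM with Sox11 K91A, with log2 fold changes of 1.95 (adjusted p = 0.014) and 2.05 (adjusted p = 0.0199). Libraries with a Sox11 virus lay above both control libraries for each gene. Plaur, the urokinase receptor, was 1.79 and 3.48 CPM in the control libraries and 0 to 0.453 CPM in the others. It passed the filter on low counts through the control libraries alone, so its call with Sox11 (adjusted p = 0.0437) was favoured by the filter.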
